A study of Mus musculus with 2 samples.

Results

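These results describe 5637 H3K27ac peaks that lay in the space between protein-coding genes, more than 2.5 kb and at most 50 kb from the nearest start of a protein-coding transcript. They were chosen by position alone, from the midpoint of each peak in the authors' replicated list of 32877 peaks, and made up 17.1% of that list (95% Wilson interval 16.7 to 17.6, which like all intervals given here covers counting error only). The same rule applied to the list of each replicate gave 4978 of 29543 peaks in replicate 1 (16.9%) and 4948 of 29345 in replicate 2 (16.9%), a mean of 4963 ± 21.2 peaks (SD, n = 2). The remaining peaks lay within 1 kb of a start (11826, called promoter peaks here), 1 to 2.5 kb from one (2825), in introns (9189) or exons (602) farther away, or between genes over 50 kb from any start (2798).

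The cells were primary macrophages grown from C57BL/6J mouse bone marrow and left unstimulated, with no genetic change or treatment named in the labels. The single group held 2 biological replicates, with 10 ng of starting DNA and a size range given as 350 to 480 without a unit, and both biosamples carry the same donor entry, so the spread between them may not include differences between animals. Age, sex and stage were unknown or not collected. With 1 group there was no contrast of conditions and no test; values are given with their spread over the 2 replicates, and peaks, genes and windows are not replicates.

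H3K27ac, the acetylation of lysine 27 on histone H3, is placed by the acetyltransferases p300 and CBP on nucleosomes beside active promoters and enhancers. Enhancers are stretches of DNA bound by transcription factors that act on promoters over a distance, and away from starts this mark is widely used to find them. In macrophages many enhancers are bound by PU.1, a factor of the ETS family, together with AP-1, C/EBP and other factors. Among markers that define cell types, 12 of 12 macrophage genes had promoter peaks in each replicate, and 8 of them were also the nearest gene of 15 of the intergenic peaks. None of the 7 neutrophil, 5 B cell, 5 T cell, 5 erythroid or 6 fibroblast markers had a promoter peak in either replicate, and 2 intergenic peaks lay nearest to any of these, at Ltf and Cd4. In longer lists of such cells some genes were marked in both replicates: 3 of 26 B, T and NK cell genes (Cd3d, Ms4a1 and Lck) and 2 of 24 neutrophil, erythroid and mast cell genes (Prtn3 and Mmp8), with 4 and 3 intergenic peaks nearest to the 2 lists, against 0 of 30 and 5 peaks for fibroblast, epithelial, neuron and muscle genes.

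The sequences below are the central 300 bases of 5 of the intergenic peaks, on the forward strand of GRCm38 patch 6 (RefSeq). They show the short words discussed further on as they stand in peaks of this kind, and were chosen after the values had been seen, for the words they hold. Capitals mark a match to a word, read on either strand: GAGGAAGT (ETS/PU.1), TGANTCA (AP-1), TTGCNNAA (C/EBP), GGGANTTTC (NF-kB) and GGGCGGG (SP/KLF). The ETS/PU.1 word was in 6.60% of the central windows of all 5637 peaks and in 1.88% of 9430 windows of the same length lying 5 kb to the left or right and outside all peaks. For the AP-1 word these shares were 15% and 9.52%, for C/EBP 13.4% and 11.5%, for NF-kB 1.31% and 1.08%, and for SP/KLF 4.58% and 2.15%. A match is a run of letters and not a bound site.
BC005537 (chr13:24791449-24791748): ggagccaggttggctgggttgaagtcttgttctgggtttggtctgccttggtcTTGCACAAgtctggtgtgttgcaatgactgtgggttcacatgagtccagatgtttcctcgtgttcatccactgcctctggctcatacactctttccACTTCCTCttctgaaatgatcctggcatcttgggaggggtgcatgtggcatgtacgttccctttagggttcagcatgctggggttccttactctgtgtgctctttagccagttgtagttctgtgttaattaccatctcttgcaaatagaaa
Fth1 (chr19:9954492-9954791): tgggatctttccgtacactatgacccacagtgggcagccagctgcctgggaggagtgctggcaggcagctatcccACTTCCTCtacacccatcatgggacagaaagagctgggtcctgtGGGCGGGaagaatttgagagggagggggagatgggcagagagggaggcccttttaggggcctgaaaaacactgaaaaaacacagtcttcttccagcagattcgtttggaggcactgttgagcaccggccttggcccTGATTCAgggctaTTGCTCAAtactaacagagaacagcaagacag
Ccl2 (chr11:82016143-82016442): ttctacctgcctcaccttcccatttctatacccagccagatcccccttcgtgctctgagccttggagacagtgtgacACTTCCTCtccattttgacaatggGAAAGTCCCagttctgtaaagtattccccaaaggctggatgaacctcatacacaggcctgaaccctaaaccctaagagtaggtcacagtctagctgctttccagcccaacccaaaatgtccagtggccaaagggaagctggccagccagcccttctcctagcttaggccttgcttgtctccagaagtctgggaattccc
Dppa3 (chr6:122654319-122654618): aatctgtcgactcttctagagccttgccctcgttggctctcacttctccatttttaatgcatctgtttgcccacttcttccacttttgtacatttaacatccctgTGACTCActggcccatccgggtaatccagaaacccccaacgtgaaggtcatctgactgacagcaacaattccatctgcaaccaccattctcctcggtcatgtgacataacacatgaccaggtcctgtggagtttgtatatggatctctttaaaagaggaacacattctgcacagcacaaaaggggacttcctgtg
Tlr4 (chr4:66822389-66822688): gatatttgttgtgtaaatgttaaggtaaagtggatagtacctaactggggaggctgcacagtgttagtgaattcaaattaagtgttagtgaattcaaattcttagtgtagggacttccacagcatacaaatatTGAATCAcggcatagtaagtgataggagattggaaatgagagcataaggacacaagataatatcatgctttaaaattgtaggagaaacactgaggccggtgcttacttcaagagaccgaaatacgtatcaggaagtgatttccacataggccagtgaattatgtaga

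In the window nearest to BC005537 the ETS/PU.1 letters began at base 150 and a C/EBP word at base 54, counted from 1 at the left end. The window upstream of Fth1, which encodes the heavy chain of the iron store ferritin, held 4 words, with ETS/PU.1 at base 76, SP/KLF at base 120, AP-1 at base 256 and C/EBP at base 269. The Ccl2 window came from a weak peak (fold 4.45) 19279 bp upstream of this monocyte chemokine gene and held the ETS/PU.1 word at base 78 and the NF-kB word at base 102. The windows nearest to Dppa3 and to Tlr4, the receptor for lipopolysaccharide, each held a single AP-1 word, at bases 106 and 134.

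Intergenic peaks were denser the closer the sequence lay to a start. Per Mb of sequence outside protein-coding genes, replicate 1 gave 14.4 and replicate 2 gave 13.3 peaks at 2.5 to 5 kb (13.9 ± 0.738, mean ± SD, n = 2), and 6.60 and 6.42 at 40 to 50 kb (6.51 ± 0.132). The bins between these decreased in order: 12 ± 0.270 at 5 to 10 kb, 10.4 ± 0.0684 at 10 to 20 kb, 8.58 ± 0.143 at 20 to 30 kb and 7.85 ± 0.0450 at 30 to 40 kb. Each step between neighbouring bins was larger than the SDs of both, and over the whole range the density was 9.74 ± 0.0416 per Mb, against 2.28 ± 0.0342 beyond 50 kb. The peaks themselves varied little with distance. Across the 6 bins the median fold stayed between 5.65 and 6.31, the median width between 1089 and 1202 bp, and the share found in both replicates between 71.2 and 73.7%. Distances are from the midpoint to the nearest start, also for peaks beyond the 3′ end of a gene. The median distance was 15022 bp (quartiles 7707 and 27160). Peaks lay upstream of the nearest start in 3925 cases (69.6%), where 65.3% of the sequence lay, with 10.3 ± 0.0595 per Mb there and 8.67 ± 0.00800 per Mb beyond the 3′ end of the nearest gene.

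**Figure D1:**
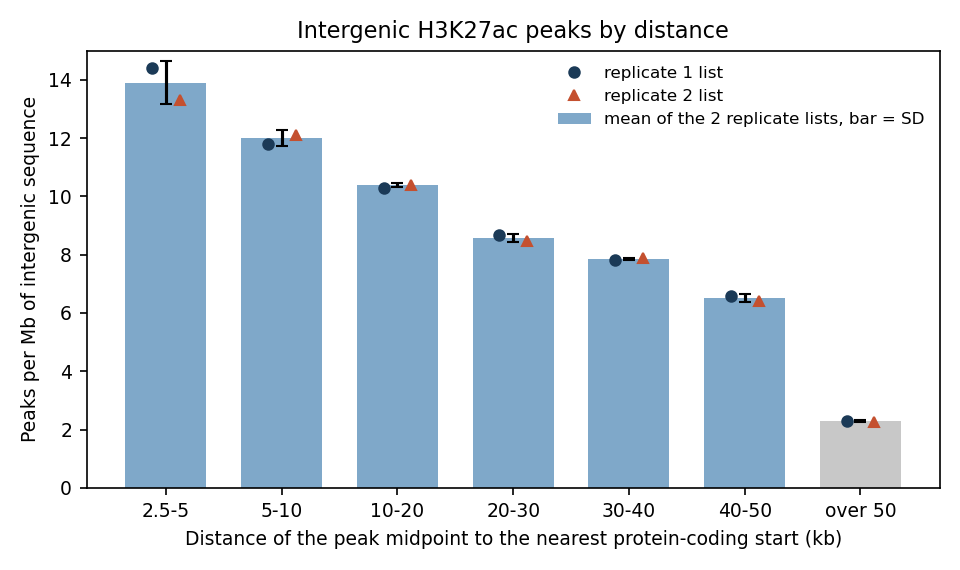
Peaks per Mb of intergenic sequence (vertical axis) by distance of the peak midpoint from the nearest protein-coding start in kb (horizontal axis), as the mean of the 2 replicate lists with the SD as error bar and each replicate as a point. The density goes from 13.9 per Mb at 2.5 to 5 kb to 6.51 at 40 to 50 kb and 2.28 beyond 50 kb (grey).

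Peaks on either side of each distance limit had close median folds. The 160 peaks at 2.5 to 3 kb had a median fold of 5.84, and the 150 intergenic peaks just outside, at 2 to 2.5 kb, one of 5.89. At the far edge the 224 peaks at 45 to 50 kb had a median fold of 5.57 and the 212 at 50 to 55 kb one of 5.80. The peak closest to the near limit lay 2506 bp from a start of Fgr, a Src family kinase gene of myeloid cells (fold 4.55), and the first one left out lay 2496 bp from Scn4a, a muscle sodium channel gene (fold 2.82). At the far limit these were a peak 49980 bp from Map10 (fold 4.17) and one 50011 bp from Dcaf5 (fold 2.88).

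By fold, the ratio of signal to background that the authors gave each peak, the intergenic peaks stood in the middle of the list but reached its top more often than intronic peaks did. Their median fold in the replicated list was 6.03 (quartiles 3.71 and 12.4, range 1.70 to 59.6), against 6.31 over all peaks, 7.24 at promoters, 5.19 in introns and 5.57 between genes beyond 50 kb. Ranked by fold within the list, their median percentile was 48.2. Of them 11.3% were in the top decile of the list, with 11.5% and 11.3% in the replicates' own lists (11.4 ± 0.165%), whereas intronic peaks gave 8.78 ± 0.0765% and those beyond 50 kb 9.79 ± 0.265%. The differences from both classes exceeded the replicate SDs. In the replicates' own lists the median folds of the intergenic peaks were 7.06 and 6.89 (6.97 ± 0.114).

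The intergenic peaks were wider than promoter peaks and like intronic ones in width. Their median width was 1137 bp (quartiles 617 and 1880, range 235 to 19492), against 1010 bp over all peaks, 841 bp at promoters and 1139 bp in introns, and 22.5% spanned 2 kb or more. In the replicates' own lists the medians were 1042 and 1088 bp (1065 ± 32.5). The widest, with 19492 bp (folds 49.4 and 50.1), lay nearest to Frmd8, whose product takes part in the release of cytokines from the cell surface. The next had widths of 18434 bp, nearest to the lipid transport gene Osbpl8 and 38660 bp upstream of it (35.0 and 35.0), and 17286 bp, nearest to Plekho2 (53.8 and 55.5).

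Most of the intergenic peaks were found in both replicates, by an overlap of at least 1 bp. This held for 4069 (72.2%, interval 71.0 to 73.3), against 74.5% of all peaks of the replicated list, 79.9% of promoter peaks, 69.4% of intronic peaks (68.5 to 70.4) and 70.8% of peaks beyond 50 kb. A further 376 were in replicate 1 alone and 430 in replicate 2 alone, both with a median fold of 3.53, and 762 were in neither, with medians of 2.97 for the fold and 444 bp for the width. For those in both these medians were 8.72 and 1484 bp. A peak missing from a replicate was one that the authors did not call there, which does not show that the mark was absent.

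Support followed the fold. In deciles of the whole list, from the lowest fold up, 3.72, 18.6, 47.0, 80.9 and 98.1% of the intergenic peaks were in both replicates, and above the fifth decile all of them were. At like fold, intronic peaks were found in both more often, with 56.4% in the third decile and 86.9% in the fourth, although their share over all deciles was lower. The highest fold of a peak in 1 replicate alone was 5.84, 23897 bp upstream of Slamf9, a receptor of the SLAM family (5.51 in replicate 1), followed by peaks upstream of the tubulin gene Tubb4b (5.66; 6.88 in replicate 1) and of Atxn1 (5.66; 6.37 in replicate 2). The highest in neither replicate were 4.82 near the splicing regulator Mbnl1, 4.55 near Trp53inp2 and 4.45 beyond Ptafr, the receptor for platelet-activating factor. For the 4069 peaks in both, Spearman's rho between the replicate folds was 0.952, and Pearson's r of the log2 folds was 0.961. This is a description over peaks that share their libraries. Their percentile within the 2 lists differed by a median of 4.41 points, and 207 of them (5.09%) differed by over 20 points. Where a replicate's peak spans several peaks of the replicated list, each of these was given its fold, which can enlarge such differences.

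**Figure D2:**
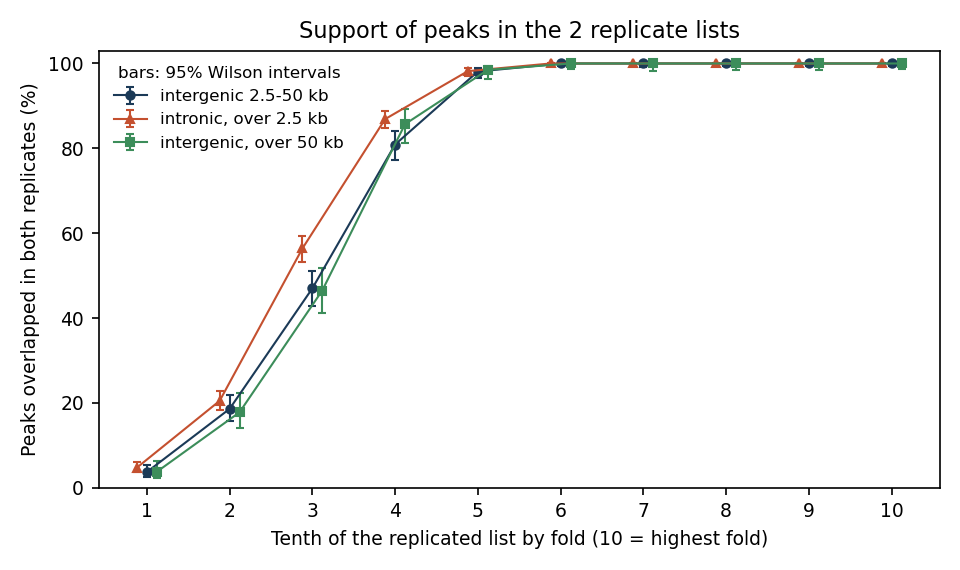
Share of peaks overlapped by a peak of each replicate, in percent with 95% Wilson intervals (vertical axis), by decile of the replicated list ranked by fold (horizontal axis), for intergenic peaks 2.5 to 50 kb from starts, intronic peaks and intergenic peaks beyond 50 kb. Support of the intergenic peaks goes from 3.72% in the lowest decile to 98.1% in the fifth and 100% above it.

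The highest of the intergenic peaks lay near genes of varied function. The highest fold, 59.6 (53.5 in replicate 1 and 56.0 in replicate 2), belonged to a peak of 6414 bp on chromosome 13 at 24788392 to 24794805, 10059 bp upstream of BC005537. The peak beyond Plekho2 had a fold of 59.3 (53.8 and 55.5). The third lay 13337 bp upstream of Lgmn, which encodes the lysosomal protease legumain, on chromosome 12 at 102449169 to 102457132 (55.7; 48.7 and 52.3). In each of these 3 peaks both replicates were above 48, far over their median folds.

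A pair of peaks with a fold of 54.5 lay on chromosome 11 on either side of a long gap. One was 42053 bp beyond Metrnl, which encodes a secreted protein (49.0 and 51.1), and the other 25529 bp upstream of Ptchd3 (46.8 and 48.7), which had no promoter peak. For the Ptchd3 peak the nearest gene with a promoter peak was Metrnl, 101955 bp away. The peak 40179 bp beyond Cd69, an early activation antigen of leukocytes, had a fold of 51.3 (50.8 and 46.2). Cd69 was without a promoter peak shared by the replicates, and the closest gene that did was Clec2d, which encodes a C-type lectin, 54572 bp from that peak. Fth1 had a peak of fold 51.0 (45.8 and 48.3) 25957 bp upstream. The 12 highest were completed by peaks nearest to Dppa3, a germ cell gene (50.7), Osgin1, an oxidative stress response gene (50.5), the methyltransferase gene Vcpkmt (50.4) and Tnrc18 (49.7). The Tnrc18 peak is wide enough to end 196 bp from a start, so the same peak also counts as the promoter peak of the gene.

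Genes with a promoter peak had more of the intergenic peaks around them. The nearest gene had a promoter peak in both replicates (marked for short) for 3848 of the 5637 (68.3%, interval 67.0 to 69.5), while 39.4% of all 21938 protein-coding genes had one and 30.4% of the eligible sequence lay nearest to such a gene. Per Mb of sequence nearest to genes with a promoter peak, replicate 1 gave 22.4 and replicate 2 gave 22.2 intergenic peaks (22.3 ± 0.0822), against 4.28 and 4.25 nearest to the other genes (4.26 ± 0.0239). The ratio of the densities was 5.22 and 5.24 (5.23 ± 0.0101), a difference far beyond the spread between replicates. Promoter peaks and intergenic peaks come from the same libraries and share their quality. Near genes with a promoter peak the intergenic peaks had a median fold of 6.45 and a width of 1218 bp, against 5.29 and 969 bp near the others.

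The density also followed the height of the promoter peak. When genes were ranked by promoter fold and divided into 4 groups of about equal size, the density was 14.1 ± 0.156 per Mb at folds of 2.13 to 7.24, 17.7 ± 0.395 at 7.26 to 11.4, 22.2 ± 0.210 at 11.4 to 18.8 and 36.2 ± 0.303 at 18.9 to 60.9. The share of genes with at least 1 intergenic peak nearest to them was 8.06% without a promoter peak and 16.3, 19.8, 21.9 and 32.3% in the 4 groups, against 13.8% of all genes. The median fold of the intergenic peaks was 5.75 in the group of lowest promoter fold and 7.10 in the highest. Of the 5637 peaks, 24 were wide enough to reach within 1 kb of a start of their nearest gene and 7 covered one. The promoter fold of 45.9 at the histone methyltransferase gene Setd1b, for example, is that of an intergenic peak. Without those 24 the share with a marked nearest gene was 68.1%, a value computed after the main one had been seen.

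**Figure D3:**
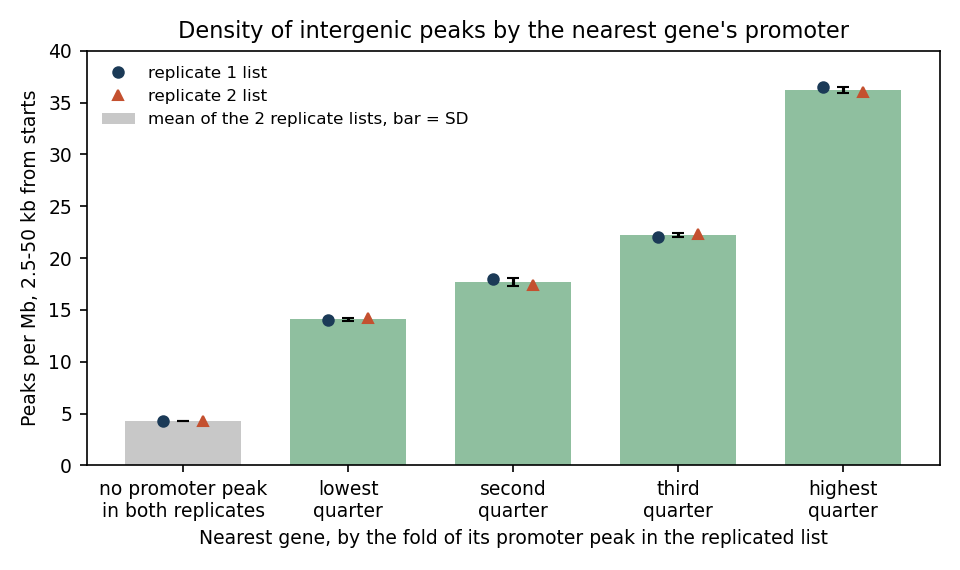
Intergenic peaks per Mb of sequence (vertical axis) nearest to genes without a promoter peak in both replicates and to genes in 4 groups of rising promoter fold (horizontal axis), as the mean of the 2 replicate lists with SD and each replicate as a point. The density goes from 4.26 per Mb without a promoter peak to 36.2 in the group of highest promoter fold.

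Some peaks without a marked nearest gene had a marked gene on the other side. Both flanking genes had a promoter peak for 2143 of the intergenic peaks (38%), the nearest alone for 1705 (30.2%), the other alone for 954 (16.9%) and neither for 835 (14.8%). The median fold was 6.77, 6.12, 5.37 and 5.29 in that order, and the median width 1268, 1167, 1037 and 884 bp. No gene with a promoter peak lay within 50 kb of 1038 peaks (18.4%) or within 100 kb of 546 (9.69%). Among these was a peak of fold 48.6 (46.1 and 43.4) 45745 bp from the start of Atp6v0d2, a subunit of the proton pump of osteoclasts and macrophages. Atp6v0d2 had no promoter peak, and the nearest gene that had one was the ubiquitin ligase gene Wwp1, 162202 bp from that peak. Of the 1789 intergenic peaks whose nearest gene was not marked in both replicates, 1490 had a nearest gene without a promoter peak in any of the 4 lists. Of the 100 intergenic peaks of highest fold (37.6 and above), 78 had a nearest gene with a promoter peak and a further 17 had one on the other side, at any distance.

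A total of 3019 genes (13.8% of all) were the nearest gene of at least 1 intergenic peak. Of these genes 1651 had 1 such peak, 721 had 2, 499 had 3 or 4, and 148 had 5 or more, which held 893 peaks (15.8%). The share of genes with a promoter peak was 35.3% for genes with no intergenic peak, 59.9% for those with 1, 66.4% for 2, 73.1% for 3 or 4, and 76.4% for 5 or more. Genes with more peaks also had more eligible sequence, with medians of 11.5 kb for none, 24.5 kb for 1, 34.5 kb for 2 and 46.9 kb for 3 or 4. The densities above are therefore given per Mb of that sequence.

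The gene with the most was Tsc22d3, which encodes the glucocorticoid-induced leucine zipper protein, with 11, of which 8 were in both replicates. They lay on its 3′ side on the X chromosome, 3990 to 38229 bp from the start, with folds of 2.78 to 15.7. The highest of these had 15.3 in replicate 1 and 14.4 in replicate 2. Fos, a subunit of AP-1, had 10 peaks (8 in both) with folds of 3.77 to 20.2 on both sides of the gene, the highest 5023 bp upstream (21.4 and 20.1). Ier5, an immediate early gene, had 10 (9 in both), of which the strongest lay 48694 bp away (28.5; 24.6 and 28.0). Plxna1, a semaphorin receptor gene, also had 10, but only 4 were in both replicates, and after the highest, 38.5 (34.9 and 36.2), the next was 8.44. Ifnar1, a chain of the type I interferon receptor, had 9 (7 in both), up to 40.4 (34.8 and 40.1), and lies between other cytokine receptor genes, Il10rb and Ifngr2.

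Genes of macrophage function were nearest to the intergenic peaks more often than genes at large. In all 7 lists of such genes the share with at least 1 intergenic peak, 29.7 to 65.8%, exceeded the 13.8% of all genes and the 22.5% of genes with a promoter peak, although for interferon response genes the interval (17.5 to 45.8%) included the latter. Of the 5 other lists, cell cycle genes (28.6%, 15.3 to 47.1) and B, T and NK cell genes (15.4%, 6.15 to 33.5) lay above the share of all genes, the second with an interval that included it. Per Mb of sequence nearest to the listed genes, the lysosome and phagosome list had the highest density, with 64.1 in replicate 1 and 67.1 in replicate 2 (65.6 ± 2.11), against 9.77 and 9.71 over all genes and 22.4 and 22.2 over genes with a promoter peak. Receptors and surface proteins of macrophages had 51.3 ± 3.52, cholesterol and lipid genes 47.6 ± 0.811, macrophage transcription factors 41.1 ± 1.87, cytokines and chemokines 36.8 ± 1.27, NF-kB signalling genes 29.4 ± 2.77 and interferon response genes 27.5 ± 3.33. The lysosome, receptor, cholesterol, transcription factor and cytokine lists exceeded the density for genes with a promoter peak in both replicates by several SDs. These SDs cover the spread between replicates and not the choice of the few genes in each list. Housekeeping genes (24.0 in both) and cell cycle genes (27.3 and 19.3) lay near the density for genes with a promoter peak. The NF-kB (31.4 and 27.4) and interferon lists (25.2 and 29.9) were not clearly apart from these 2 lists, which are not specific to macrophages. The 3 lists of other cell types lay below that of all genes in both replicates: 5.24 in both for fibroblast, epithelial, neuron and muscle genes, 4.57 in both for B, T and NK cell genes, and 6.48 and 2.16 for neutrophil, erythroid and mast cell genes. They rest on 3 to 5 peaks each.

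**Figure D4:**
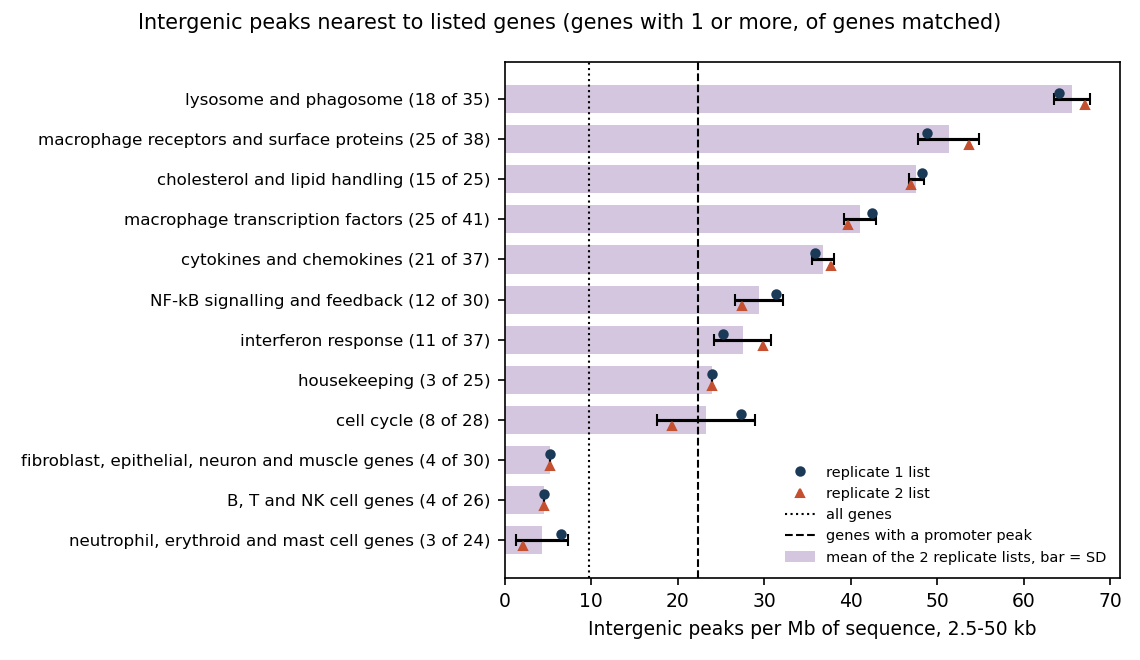
Intergenic peaks per Mb of sequence nearest to the genes of each list (horizontal axis), as the mean of the 2 replicate lists with SD and each replicate as a point; the labels give how many of the matched genes had at least 1 such peak in the replicated list. Lysosome and phagosome genes reach 65.6 per Mb, and the dotted and dashed lines mark all genes (9.74) and genes with a promoter peak (22.3).

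Of 41 macrophage transcription factor genes, 25 (61.0%) had 76 of the peaks, 80.3% of which were in both replicates. Besides Fos, the stress-induced factor gene Atf3 had 9 with a highest fold of 36.7, and Pparg, a nuclear receptor for fatty acids, had 6 with a highest of 36.0. The strongest single peaks were at Runx1, a factor of blood cell development (44.3; 40.8 and 41.1; 40739 bp upstream), and at Klf6 (42.0; 35.4 and 36.1; 15948 bp upstream). Cebpa, a driver of the myeloid lineage, had 3, all in both replicates: 14.2 (14.1 and 12.7) 20053 bp upstream, and 5.38 (4.99 and 5.36) and 5.03 (5.38 and 5.13) within 8 kb beyond the gene. Spi1, Cebpb and Irf8 had none, but 3.49 kb, 0 and 0 of eligible sequence lay nearest to them, so the rule could hardly find any there. Maf, with 73.3 kb of such sequence and a promoter fold of 33.9, had none either. Mitf, which drives lysosomal genes, had 3 peaks of folds 2.52 to 3.62, none of them in both replicates.

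Of 38 receptor and surface protein genes, 25 (65.8%) had 50 of the peaks. The highest were near Ccr2, the receptor for the chemokine Ccl2 (40.1; 39.8 and 37.7; 31946 bp upstream, with a promoter fold of 5.66), and Fcgr4, an activating receptor for antibodies (38.6; 35.3 and 35.8). Adgre1, which encodes F4/80, had 2 with folds of 37.3 and 30.1, and the endosomal receptor gene Tlr13 had 3, up to 36.5. Csf1r, which encodes the receptor of the main macrophage growth factor, had 2 upstream peaks of moderate fold, 8.81 (6.88 and 9.72) and 5.57 (4.99 and 5.87). Tlr4 had 3 upstream: 6.10 (5.23 and 6.29) at 5046 bp, 3.86 (3.96 and 3.81) at 11044 bp and 3.25, in neither replicate, at 30882 bp. The intergenic peaks of Csf1r and Tlr4 were thus low beside their promoter folds of 50.6 and 43.0, while the Ccr2 peak was high beside its own.

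Cytokine and chemokine genes differed from the other lists of macrophage function in that most of them, and most of those with an intergenic peak, lacked a promoter peak. Of 37 genes, 21 (56.8%) had 49 of the peaks, but 9 of these 21 had one in both replicates, as did 16 of all 37. By comparison, among genes with an intergenic peak it was 25 of 25 for the transcription factors, 24 of 25 for the receptors and 12 of 12 for the NF-kB list. Those lists had promoter peaks at 40 of 41, 35 of 38 and 29 of 30 of all their genes. The contrast is thus one between the lists as a whole. Over all genes nearest to an intergenic peak, 64.5% had a promoter peak in both replicates. The number was low in the lists of other cell types too, with 1 of 4 for B, T and NK cell genes. There it was 1 of 3 for neutrophil, erythroid and mast cell genes and 0 of 4 for fibroblast, epithelial, neuron and muscle genes. The peaks had a median fold of 4.36, and 61.2% were in both replicates, against 72.2% of all the intergenic peaks. Ccl2 had 7, the highest 29189 bp upstream (38.1; 35.4 and 34.7). The next, of fold 26.5, lay 12214 bp upstream (24.4 and 29.2), and the other 5 had folds of 2.5 to 4.45. Il1b, the gene of interleukin-1 beta, had 4 without a promoter peak in any list: 13.6 (11.4 and 11.4) at 9285 bp upstream, 6.20 (5.38 and 6.16) at 2755 bp upstream, and 3.25 and 2.97 beyond the gene, the former in replicate 2 alone (3.08) and the latter in neither. Il6 had 1, 23036 bp beyond the gene, of fold 5.19 and in replicate 1 alone (5.51). The neutrophil chemokine genes Cxcl1 and Cxcl2 had peaks up to 10.8 and 18, and Ifnb1, the gene of interferon beta, had 2 in both replicates with folds of 6.63 and 5.29. Tnf and Cxcl10 had none, with 1.06 kb and 0 of eligible sequence.

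NF-kB signalling and feedback genes had fewer peaks than cytokine genes but higher ones. Of 30 genes, 12 had 26 of the peaks, with a median fold of 13.8. Tnfaip3, which encodes the inhibitor A20, had 7 (5 in both, up to 25.5). The highest was near Zc3h12a, an RNase that degrades cytokine transcripts (37.4; 33.9 and 34.9), and the highest at Map3k8, a kinase gene of the pathway, was 27.3 (25.8 and 25.3). Interferon response genes had 18 peaks near 11 of 37 genes (29.7%). The highest were near the regulators Irf2 (37.9; 36.7 and 36.9; 35558 bp beyond the gene) and Irf1 (24.4; 21.5 and 24.8; 6247 bp upstream). Socs3, an inhibitor of cytokine receptor signalling, had 5 peaks (3 in both, up to 12.9) and no promoter peak.

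Lysosome and phagosome genes had the best supported peaks of the macrophage lists. Of 35 genes, 18 (51.4%) had 42 of the peaks, with a median fold of 10.1 and 90.5% in both replicates. Besides Lgmn and Atp6v0d2 they included Psap and the protease gene Ctsd, each up to 46.8, and Gpnmb, a glycoprotein of lysosomes, up to 46.1. Ctsc, another cathepsin gene, had 6 peaks, all in both replicates. Of 25 cholesterol and lipid genes, 15 had 44 peaks. The cholesterol exporter genes Abcg1 (37.3; 35.1 and 34.0; 18395 bp upstream) and Abca1 (36.5; 34.2 and 34.9; 27478 bp upstream) had the highest, and Ch25h, which makes an oxysterol, and the lipase gene Lpl had 6 each. Ch25h had no promoter peak.

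Lists that are not specific to macrophages had lower shares of such genes, with cell cycle genes close to interferon response genes (29.7%). These shares do not allow for eligible sequence. Its median per gene was 1.85 kb for housekeeping genes, against 9.11 to 47.5 kb in the macrophage lists. For the cell cycle list and the lists of other cell types it lay within that range. Per Mb, housekeeping genes had 24.0 peaks in both replicates, above the mean of 9.74 over all genes. Of 25 housekeeping genes 3 (12%) had 8 of the peaks, all in both replicates. These were near the actin gene Actb (up to 38.6; 33.4 and 33.4) and the translation elongation factor genes Eef1a1 (up to 25.5; 24.4 and 23.3) and Eef2 (7.33). All 25 had a promoter peak. Of 28 cell cycle genes 8 (28.6%) had 17, led by the cell cycle inhibitor gene Cdkn1a (32.3; 30.3 and 28.2) and the kinase gene Cdk6 (30.1; 28.2 and 27.3). For B, T and NK cells 4 of 26 genes (15.4%) had 1 peak each, near Ms4a1, which encodes the B cell antigen CD20 but lies among other Ms4a genes (33.8; 28.2 and 34.2), Cd4 (12.8; 12.6 and 12.2), Klrb1c (6.49) and Cd2 (3.06). Neutrophil, erythroid and mast cell genes had 3, near Ctsg (5.68; 5.51 and 5.32), Ltf (3.53, replicate 1 alone with 3.79) and Mmp8 (3.06), and fibroblast, epithelial, neuron and muscle genes had 5, up to 11.2 near the smooth muscle actin gene Acta2 (12.2 and 8.55) and 6.03 near the epithelial adhesion gene Epcam (6.19 and 5.20). The nearest gene need not be the gene on which a peak acts: by distance to the gene body in place of the start, 4945 of the 5637 peaks (87.7%) kept their nearest gene.

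Some of the intergenic peaks lay at starts of genes that make no protein. A noncoding start was within 1 kb of the midpoint of 449 (7.97%, interval 7.29 to 8.70), where 3.86% of the eligible sequence lay. The density there was 20.9 per Mb in replicate 1 and 21.2 in replicate 2, against 9.33 and 9.25 in the rest. The nearest such start was of a long noncoding RNA for 271, a pseudogene for 96 and a microRNA for 18. Those near a noncoding start had a median fold of 7.41 and 78.0% were in both replicates, against 5.94 and 71.7% of the others. They also differed in sequence: 22.5% of their central windows had an observed to expected CpG ratio of at least 0.6, a feature of CpG islands, against 2.87% of the others.

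In 235 cases (4.17%) the peak covered the start of a long noncoding RNA. The highest of all covered Gm12589 and is the peak named at Ptchd3 (54.5; 46.8 and 48.7). Among RNAs known for a function were Neat1, the scaffold of nuclear paraspeckles (52.4; nearest coding gene Frmd8), and Malat1, an abundant nuclear RNA (44.4; 39.9 and 42.6). Others were Trp53cor1, a p53 target also called lincRNA-p21 (32.3, the peak named at Cdkn1a), the snoRNA hosts Snhg15 (22.4; 23.6 and 18.3) and Snhg12 (13.9; 14.3 and 11.9), and Ftx, an RNA of the X inactivation centre (24.0; 23.4 and 22.3). These peaks thus lie between protein-coding genes but over annotated starts of noncoding RNA.

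In 12 peaks lay 16 of the 1005 mouse microRNA hairpins of RefSeq. For widely studied hairpins 8 mature sequences are shown, with both miR-142a sequences from the same hairpin. The seed, bases 2 to 8, is in capitals, since the seed sets which transcripts a microRNA pairs with. No seed is shared among them.
miR-21a-5p: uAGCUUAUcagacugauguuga
miR-142a-3p: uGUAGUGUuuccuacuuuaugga
miR-142a-5p: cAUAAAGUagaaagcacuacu
miR-23a-3p: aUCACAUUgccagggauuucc
miR-27a-3p: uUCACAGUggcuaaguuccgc
miR-24-3p: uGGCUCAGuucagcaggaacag
let-7i-5p: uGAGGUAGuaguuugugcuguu
miR-210-3p: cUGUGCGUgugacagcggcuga

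Mir21a lay in a peak of 13112 bp on chromosome 11, whose midpoint was 4896 bp from a start of Vmp1 (40.4; 37.9 and 36.2). Mir142, a microRNA of blood cells, lay in the peak that also covers the start of its host transcript Mir142hg (39.8; 37.0 and 36.4), 4525 bp from a start of Tspoap1, which had no promoter peak in any list. Mir23a, Mir27a and Mir24-2 lay together in a peak on chromosome 8 at 84206836 to 84209976 (26.6; 26.4 and 22.6), 23189 bp from Nanos3. Mirlet7i lay in one of fold 11.7 (10.3 and 11.7) and the hypoxia-induced Mir210 in one of 5.29 (3.96 and 6.20). The first 5 of these hairpins were thus in peaks of high fold in both replicates, and Mir210 was in one below the median. The remaining peaks with a hairpin had folds from 24.4 at Mir7671 (21.5 and 24.8) down. The lowest were 4.27 at Mir7688, in replicate 2 alone (4.52), and 3.25 at Mir7228, in neither replicate.

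Many of the intergenic peaks lay within 10 kb of another. Joined where less than 10 kb apart, they formed 3447 clusters, of which 2180 held a single peak, and 61.3% of the peaks stood in clusters of 2 or more. No such share was computed for other classes of peaks, so whether this is particular to them was not tested. Peaks in the 98 clusters of 5 or more had a median fold of 7.05 and a width of 1369.5 bp, against 5.84 and 1110.5 bp for those alone. The largest held 17 peaks (13 in both replicates) over 69698 bp of chromosome 1 between Atf3 and Nenf, with folds up to 36.7. The next held 14 on chromosome 19 (6 in both), among them those at Malat1 and Neat1, and 12 near Nid1 and Lyst on chromosome 13 (8 in both). The cluster upstream of Fth1 and Incenp had 8, all in both replicates. By chromosome the density was highest on chromosome 11, at 17.0 per Mb in both replicates, and on the X chromosome it was 2.97 ± 0.207. The share of sequence nearest to a gene with a promoter peak was 39.0% on chromosome 11 and 17.0% on the X chromosome. The part of this in the difference was not tested.

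The central 300 bases of the intergenic peaks were richer in some words than the windows 5 kb to either side. For the ETS/PU.1 word GAGGAAGT, capitalised in the BC005537, Fth1 and Ccl2 windows above, the share of windows was 3.52 times that of the flanks, and in the replicates' own lists 3.36 and 3.42 times (3.39 ± 0.0422). The ratio was 2.44 for the ETS core CCGGAAG, with an unlike 1.97 and 2.71 in the replicates. It was 2.25 for GCTGANTCA, a MAF word joined to an AP-1 word (2.13 and 2.54). For the SP/KLF word it was 2.13 (2.04 and 2.17) and for the AP-1 word 1.57 (1.59 ± 0.0323 in the replicates). For C/EBP it was 1.17 (1.19 ± 0.0303), for IRF (GAAANNGAA) 1.26 (1.20 ± 0.0431), and for RUNX (TGTGGTT) 1.03 (0.986 ± 0.0505), where the replicates lay on both sides of 1. The other words were the CTCF core CCACNAGNG at 1.38, MEF2 CTANAAATA at 1.25, the E-box CACGTG at 1.21, NF-kB at 1.21 and the IRF/PU.1 composite GGAANNGAA at 1.10. For MEF2, the E-box, NF-kB and the composite, as for RUNX, the intervals of the shares in peaks and flanks overlapped. The AP-1 letters lie inside the MAF word, and the IRF, IRF/PU.1 and ETS words can overlap each other, so these are not separate counts. Within 1 kb of a noncoding start 5.79% of windows had the ETS core and 9.58% the SP/KLF word, against 2.74% and 4.14% of the others.

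None of the words was found in 39.6% of the central windows, against 50.3% of flanking windows. The ETS/PU.1 share was 6.03% in intronic peaks and 6.54% in intergenic peaks beyond 50 kb, both near the 6.60% here, and 2.96% at promoters. The AP-1 share was 14.3%, 15.7% and 7.28% in the same order, against 15%. For both words the intervals of the intronic and the more distant class overlapped those of the intergenic peaks. This did not hold for every word. The SP/KLF word was in 2.20% of intronic and 3.07% of more distant windows, against 4.58% here, with intervals apart in both cases. In introns the ETS core was in 1.81%, against 2.98%, with intervals apart. Beyond 50 kb C/EBP was in 17.2%, against 13.4%, and the CTCF core in 2.82%, against 4.28%, again with intervals apart. In all other cases with these classes the intervals overlapped. The ETS/PU.1 word was in 7.42% of the peaks found in both replicates and in 4.86% of those in neither. Median GC content was 47.0%, against 45.0% in the flanks and 51.7% at promoters, and annotated repeats took 20.4% of the bases, against 33.6% in the flanks.

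The words were not most frequent at the point of highest signal. Counted from the summit that the authors gave each peak, the ETS/PU.1 word had 85.4 matches per Mb of sequence in replicate 1 and 94.0 in replicate 2 within 100 bp (89.7 ± 6.08), 336 and 347 at 200 to 300 bp (342 ± 7.16), and 71.3 and 54.6 at 900 to 1000 bp (62.9 ± 11.8). The AP-1 word had 319 ± 17.7 within 100 bp, 704 ± 18 at 200 to 300 bp and 288 ± 16.2 at 900 to 1000 bp, and C/EBP 399 ± 1.85, 596 ± 25.3 and 430 ± 11.1. In each case the rate at 200 to 300 bp exceeded both others by several SDs. Counted from the midpoint, the ETS/PU.1 word was nearly level over the first 400 bp: it was at 215 and 251 per Mb within 100 bp (233 ± 25.2), 199 and 201 at 300 to 400 bp (200 ± 1.57) and 77.3 and 69.7 at 900 to 1000 bp (73.5 ± 5.38), and replicate 1 was highest at 100 to 200 bp (225). In the 2495 peaks under 1 kb of the replicated list the rate from the midpoint was 168 per Mb within 100 bp and 257 at 300 to 400 bp. Summit and midpoint lay a median of 142 bp apart (quartiles 53.0 and 275). With the 300 bases centred on the summit, a setting added after seeing the data, the word was in 3.14% of windows, 1.67 times the flanks.

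**Figure D5:**
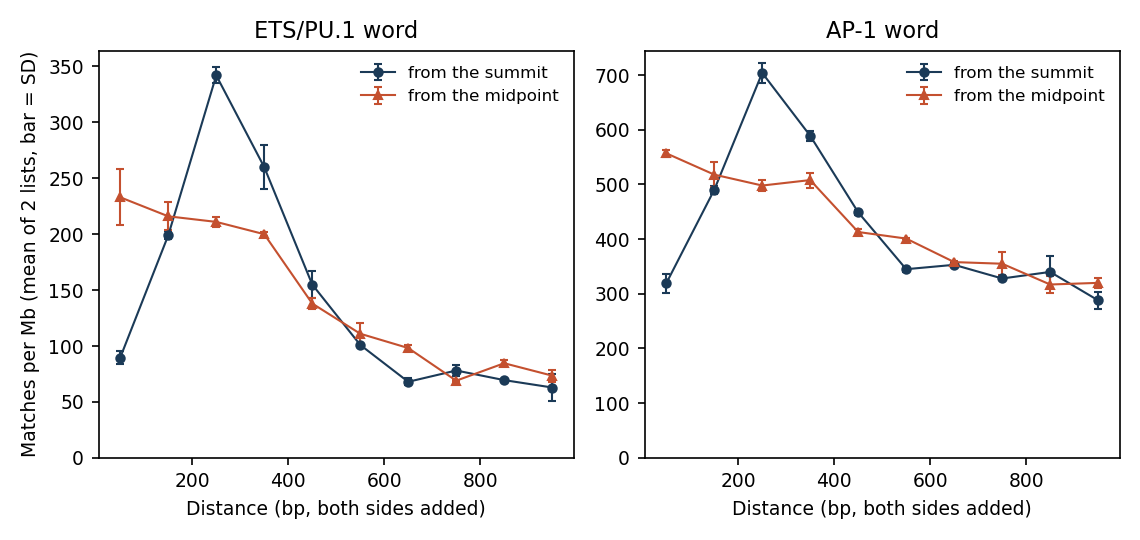
Matches per Mb of sequence (vertical axis) for the ETS/PU.1 word (left) and the AP-1 word (right), by distance in bp from the summit or the midpoint, both sides added together (horizontal axis), as the mean of the 2 replicate lists with SD. From the summit the ETS/PU.1 word goes from 89.7 per Mb within 100 bp to 342 at 200 to 300 bp and 62.9 at 900 to 1000 bp.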

How the data were processed

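H3K27ac chromatin immunoprecipitation was sequenced in 2 replicates of unstimulated macrophages. The authors deposited 4 peak lists on mm10: 1 for each replicate (29543 and 29345 peaks), and a replicated (32877) and a pooled list (32909) made from both. Each deposited peak has a fold, a linear ratio over control or background, a q-value on a −log10 scale and a summit position, all the authors' own values, used to rank and describe peaks within a list. The deposited fold column carries no recorded scaling between lists. The aligner, peak caller, their settings and the read depth are not given in the sources used here.

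Peaks were placed by their midpoint against GENCODE M21 on GRCm38 patch 6, with 21938 protein-coding genes and 93513 starts. A promoter peak, or a marked gene, means that a peak of each replicate overlapped 1 kb on either side of any start. Support was an overlap of at least 1 bp. Densities divide the peaks of each replicate list by the sequence that the position rule admits (509 Mb). Words were read on both strands in 300 bp around the midpoint and in windows 5 kb to either side outside all peaks. No test was run, since there is 1 group and peaks are not replicates. Python 3.11.15, pandas 2.3.3 and pysam 0.24.0 were used, and the scripts were tested on simulated data. The intergenic peaks, the gene lists and the words were chosen with earlier results of these data known. Of the listed names 3 matched no protein-coding symbol and were not used here.

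Peaks and genes were named by a rule: the 12 highest by fold in both replicates, the 3 widest, the 5 genes with the most peaks, the 2 highest of each list, the 3 highest in 1 replicate and in none, the 2 highest near a noncoding start, and all at Spi1, Cebpa, Cebpb, Irf8, Csf1r, Tlr4, Tnf, Il1b, Il6, Cxcl10, Ccl2 and Maf. Some items that this rule takes are not reported here. Other names, among them further list genes, noncoding RNAs and microRNAs, were chosen after their values were seen. Alternatives were the pooled list, the summit in place of the midpoint, the gene's 5′ end alone, a minimum −log10 q of 5, the 20000 peaks of highest fold, 50% overlap, other promoter, noncoding and sequence windows, the nearest gene body, genes that share no promoter, joining within 5 kb, each replicate alone and settings added later.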

Additional observations from a re-analysis of the deposited data

How the results depend on the processing

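Of 74 alternative values for 13 results, 11 were counts, of which 10 stayed within 1.5 times the reported count. Of the 63 others, 29 stayed within the replicate SD or the interval of the reported value and 34 moved beyond it. Changes of direction were not assessed. The cause of the moves was not tested except where the alternative sets it by construction. The number of intergenic peaks was 3281 among the 20000 peaks of highest fold, and their share of the list 16.4% there, 16.4% with the 5′ end of each gene alone and, in a setting added after seeing the data, 16.7% with transcripts typed protein coding only. Support in both replicates was 64.3% with 50% overlap of both peaks and 76.1% at a −log10 q of at least 5. The share with a marked nearest gene was 70.8% with a 2.5 kb promoter window, 65.3% with 500 bp, 63.0% with the 5′ end alone, 73.1% with a peak of the replicated list and 69.8% among peaks in both replicates. That share over the share of all genes (1.73) was 1.71 with the 500 bp window, 1.67 with a peak of the replicated list, 2.02 without genes that share a promoter, 1.77 among peaks in both replicates and, in a setting added later, 1.75 without peaks near a noncoding start. The share near a noncoding start was 13.9% with a 2.5 kb window. The share in clusters was 51.0% when joined within 5 kb and 52.8% among peaks in both replicates, a setting added later. The ratio of GAGGAAGT to the flanks (3.52) was 3.82 in windows of 200 bp, 3.39 in windows of 500 bp and 1.67 with windows centred on the summit, also added later.

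Some values kept the peaks of the replicated list, made from both replicates, and took only overlaps or promoter peaks from 1 replicate. Support was then 78.9 to 79.8%, the share with a marked nearest gene 69.4 to 70.6% and its ratio to that of all genes 1.70 to 1.71. The lists above the share of all genes were then 10 to 11 of 12 (9 in the replicated list). With peaks and promoter peaks both from 1 replicate, the marked share was 70.6 to 71.8%. The other values came from the peaks of each replicate's own list. There the median fold was 6.89 to 7.06, the median width 1042 to 1088 bp, the median percentile 49.2 to 50.6 and the number of peaks 4948 to 4978. The ratio of density at 2.5 to 5 kb over 40 to 50 kb was 2.08 to 2.17. The share near a noncoding start was 8.26 to 8.41%, the share in clusters 61.1 to 61.9% and the GAGGAAGT ratio 3.36 to 3.42. No paired analysis was possible because the study has a single group. The read depth is not given in the sources used here, so how many weak peaks each replicate could show is unknown. Support was lowest among peaks of low fold. The shared donor entry limits what the spread covers.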
